A study of Oreolalax rhodostigmatus with 13 samples.

Results

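The genes described here supply and recycle tetrahydrobiopterin (BH4) in tadpoles of *Oreolalax rhodostigmatus*, a cave-dwelling toad whose transparent tadpoles turn dark when lit. They are 5 of the 249088 unigenes (assembled transcripts) in the deposited table: dihydropteridine reductase (DHPR), the GTP cyclohydrolase 1 feedback regulatory protein (GCHFR) and 3 unigenes for GTP cyclohydrolase 1 (GCH1-1, GCH1-2 and GCH1-3). The rows were found by the abbreviations the study gives them and checked against their control values, which served only for this look-up. Since that choice was made with the contrast of light against dark known, differences of these 5 unigenes and of their GCH1 sum from controls are given below as descriptions, without a p value for any of them. RNA-seq libraries were made from 13 single wild tadpoles of Gosner stage 25, all taken from the dark part of a cave. Of these, 4 were killed on collection (control), 6 were short-term exposed to light for 4 h, and the 3 others were long-term exposed for 30 h. No gene was altered in any group and no agent was given. Exposed tadpoles were caged at the lit cave entrance, with a lamp at night, so that light, time of day and time in the cage cannot be told apart.

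Each library came from the tissues of 1 tadpole combined in a single tube. The methods name eyes, liver, back skin and tail as these tissues, and the labels omit the tail. A lower value can therefore be fewer cells of a type or less RNA per cell, which cannot be told apart in pooled tissue. Values are FPKM, fragments scaled to transcript length and library size by the authors. Summed FPKM ranged from 983190 to 1070969 per library, the unigenes above 0 from 91929 to 147363, and the 3 long-term exposed libraries listed the most. The table keeps no read counts, so the counting depth of a value is unknown, and an exact 0 may be a failed estimate.

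BH4 is made from GTP. GTP cyclohydrolase 1 carries out the opening, rate-limiting step, and sepiapterin reductase (SPR) the closing one. Phenylalanine, tyrosine and tryptophan hydroxylases and the nitric oxide synthases use BH4 as a cofactor, and DHPR returns the oxidised form to BH4 so that it can be used again. In mammals GCHFR binds GTP cyclohydrolase 1, lets BH4 inhibit it and lets phenylalanine activate it. In the liver this supply serves phenylalanine breakdown, and in the skin of fishes and amphibians the same route from GTP also feeds the yellow and red pteridine pigments of xanthophores and erythrophores.

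All 5 BH4 unigenes had their highest mean FPKM in control tadpoles and their lowest in long-term exposed tadpoles. In FPKM the order of the group means was thus the same for each. How many of all unigenes share this order was not counted. Neighbouring groups overlapped in every case except GCH1-1, where all 6 short-term exposed tadpoles lay below all 4 controls. On the log2 scale used for the tests, only GCH1-1 and GCH1-3 kept the order of the FPKM means. Mean log2 values of DHPR were 7.93 after 4 h and 8.11 after 30 h, and those of GCH1-2 were -0.94 and -0.26. GCHFR was lowest in controls on that scale, with log2 differences from control of 1.53 after 4 h and 0.02 after 30 h. The 3 GCH1 unigenes together went from 31.4 ± 7.80 FPKM (SD, n = 4) in controls to 13.6 ± 8.52 (SD, n = 6) after 4 h and 4.86 ± 0.37 (SD, n = 3) after 30 h. DHPR, at a much higher level, went only from 452 ± 151 (SD, n = 4) to 318 ± 219 (SD, n = 6) and 277 ± 21.5 (SD, n = 3). In the comparison of the exposed groups, 30 h against 4 h of light, none of the 5 passed. The limma test of it shares a spread estimated over all 13 libraries, controls included.

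**Figure D1:**
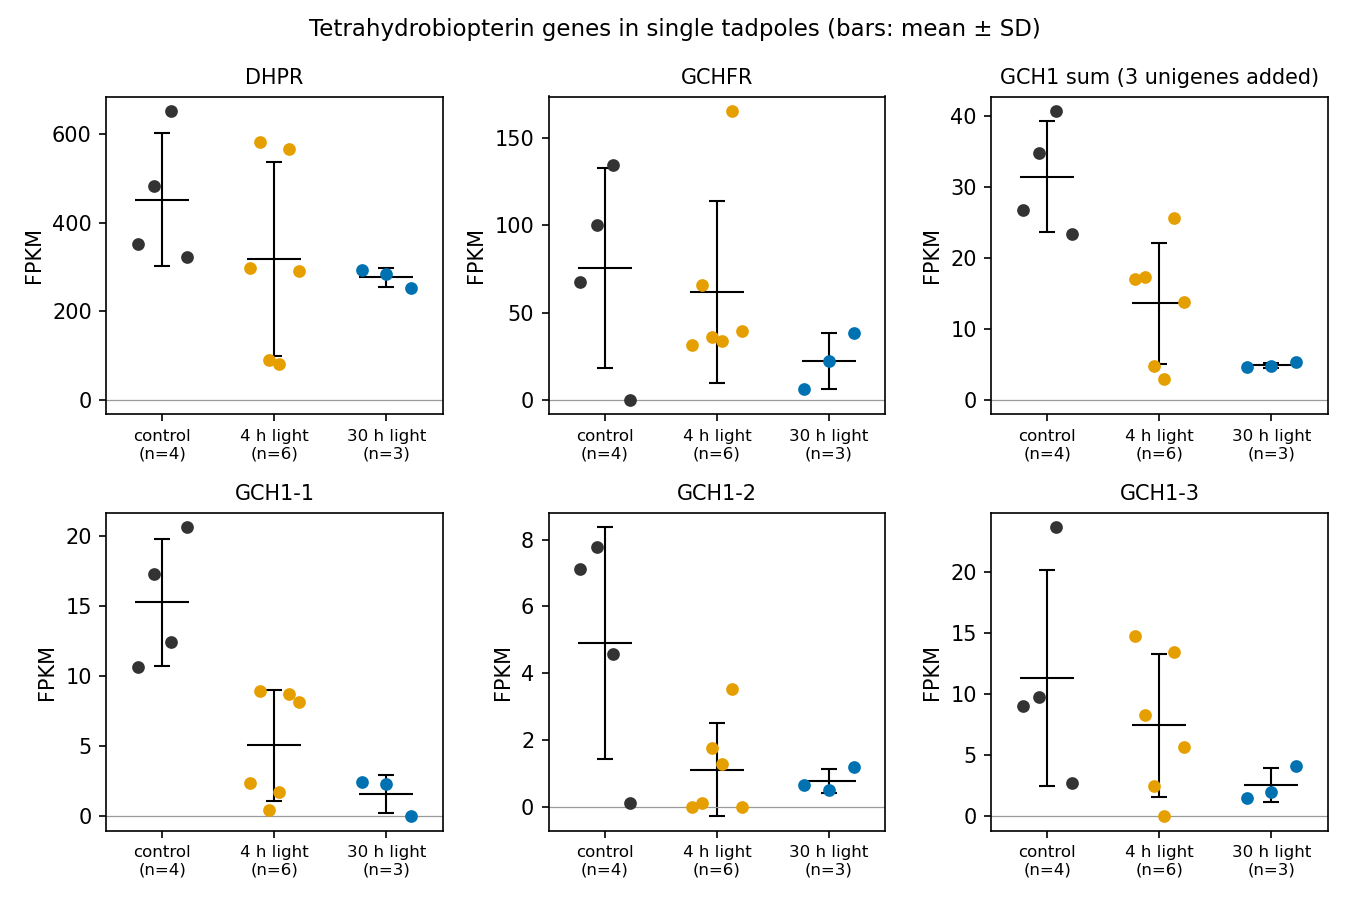
FPKM of DHPR, GCHFR, the 3 GCH1 unigenes and their sum (vertical axes, linear) in each tadpole, with the mean and SD of the control (n = 4), 4 h (n = 6) and 30 h (n = 3) groups. DHPR in the 4 h group spreads from 81.9 to 582, while the summed GCH1 values after 30 h lie together between 4.56 and 5.28.

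GCH1-1 gave the clearest separation. Its FPKM was 10.6, 17.3, 12.4 and 20.6 in the controls, in the order of their replicate numbers. After 4 h, replicates 1 to 6 had 2.33, 8.93, 0.45, 1.70, 8.74 and 8.16. After 30 h, the values were 2.44, 2.26 and a listed 0. Every exposed tadpole was thus below the lowest control, while short-term and long-term exposed tadpoles overlapped.

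On the scale of log2(FPKM + 0.1), GCH1-1 was lower than control by a log2 difference of -2.12 (SE 0.94) after 4 h and -4.14 (SE 1.12) after 30 h. The listed 0 weighs on the latter, and without long-term exposed replicate 3 it was -2.60. Between 30 h and 4 h the log2 difference was -2.02 (SE 1.03, limma adjusted p = 0.328), and the exact two-sided permutation test of 3 against 6 tadpoles gave p = 0.286. Without long-term exposed replicate 3 this difference was -0.48.

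GCH1-3 did not separate the groups. The controls had 9.04, 9.70, 23.6 and 2.67 FPKM. The short-term exposed tadpoles had 14.7, 8.25, 2.49, a listed 0, 13.4 and 5.63, in the order of their replicate numbers. After 30 h, GCH1-3 had 1.47, 1.98 and 4.09. Control replicate 4 lay within the range of the long-term exposed group, and 2 of the 6 short-term exposed tadpoles were above all controls but 1. The log2 difference of 30 h against 4 h was -0.62 (SE 1.24, limma adjusted p = 0.836; exact permutation p = 0.690).

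GCH1-2 had the lowest mean of the 3 in each group. The controls had 7.11, 7.79, 4.59 and 0.12 FPKM, and the short-term exposed tadpoles had a listed 0, 0.12, 1.76, 1.27, 3.52 and a listed 0. After 30 h, GCH1-2 had 0.65, 0.50 and 1.19. Control replicates 1 to 3 were above every exposed tadpole and control replicate 4 was among the lowest values of all. The log2 difference of 30 h against 4 h was 0.68 (SE 1.30, limma adjusted p = 0.8292; exact permutation p = 0.619). Its sign turns with the scale, since the ratio of the group means has a log2 of -0.51.

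The 3 GCH1 unigenes cannot be taken as separate genes. GCH1-1 and GCH1-3 have *Xenopus tropicalis* as the species of their best protein hit, under the same protein name, and GCH1-2 has *Macaca nemestrina*. Parts, isoforms or alleles of a single gene may have been assembled apart, in which case reads could be divided among them. Their shares of summed GCH1 varied between tadpoles of a group. GCH1-1 made up 30.6% to 88.1% in controls, 9.57% to 59.2% in short-term exposed tadpoles and 0% to 53.5% in long-term exposed tadpoles. Control replicate 4, which was lowest among controls for GCH1-2 and GCH1-3, was highest for GCH1-1.

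The sum varied relatively less than each of its parts in every group. A sum can do so by arithmetic alone, so nothing is read from this on whether the parts belong to a single gene. The coefficient of variation of the summed GCH1 was 24.8% in controls, against 29.9%, 70.8% and 78.5% for GCH1-1, GCH1-2 and GCH1-3. After 4 h it was 62.8%, against 78.2%, 125.0% and 79.2%. After 30 h it was 7.71%, against 86.8%, 46.5% and 55.3%.

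Summed GCH1 was 26.8, 34.8, 40.7 and 23.4 FPKM in controls. After 4 h it was 17.1, 17.3, 4.70, 2.97, 25.7 and 13.8, by replicate number, and it was 4.56, 4.74 and 5.28 in the long-term exposed tadpoles. All 3 long-term exposed tadpoles and 5 of the 6 short-term exposed tadpoles were below the lowest control. Of the short-term exposed tadpoles, replicate 3 lay within the range of the 30 h group and replicate 4 below it, and the other 4 were above it.

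On the log2 scale the sum was lower than control by -1.51 (SE 0.53) after 4 h and -2.64 (SE 0.63) after 30 h. With any single library left out, the 30 h value stayed between -2.77 and -2.50 and the 4 h value between -1.77 and -1.15. The step from 4 h to 30 h was -1.12 (SE 0.58) and did not pass the test (limma adjusted p = 0.332; exact two-sided permutation p = 0.214, where 0.0238 is the smallest that 6 against 3 can give).

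**Figure D2:**
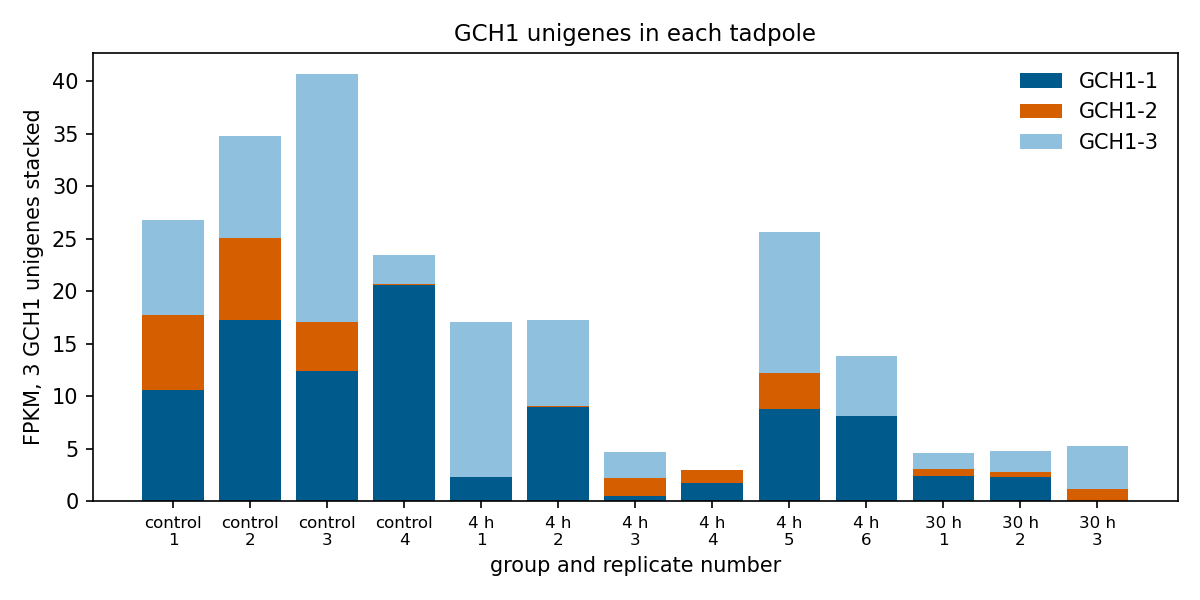
FPKM of GCH1-1, GCH1-2 and GCH1-3 stacked for each tadpole (vertical axis, linear), with the group and replicate number below. The mix of unigenes changes from tadpole to tadpole, and the height is 23.4 to 40.7 in controls and 4.56 to 5.28 after 30 h.

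GCHFR, the regulator, was abundant and variable. The controls had 67.7, 101, 134.5 FPKM and, in replicate 4, a listed 0. The short-term exposed tadpoles had 31.3, 65.9, 35.8, 33.6, 166 and 39.2, in the order of their replicate numbers. After 30 h, GCHFR was 6.38, 22.03 and 38.6. Short-term exposed replicate 5 held the highest value of the series, and long-term exposed replicates 1 and 2 were below all short-term exposed tadpoles.

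The single control listed at 0 decides how GCHFR compares with the dark. Group means were 75.7 ± 57.4 (SD, n = 4), 61.9 ± 52.4 (SD, n = 6) and 22.3 ± 16.1 (SD, n = 3), so the mean was 3.39 times as high in controls as after 30 h. The fitted log2 differences from control nevertheless came out at 1.53 (SE 1.54) after 4 h and 0.02 (SE 1.82) after 30 h. Without control replicate 4 they were -0.95 and -2.46. For 30 h against 4 h, the log2 difference was -1.51 (SE 1.69, limma adjusted p = 0.684, exact permutation p = 0.0952). The difference and the permutation test use no control, but the SE and the limma p share a spread estimated over all 13 libraries. The limma adjusted p was 0.206 without control replicate 4 and 0.282 with only the libraries of the groups compared.

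DHPR, the recycling enzyme, ranked between the 199th and the 1258th highest unigene in every library and was above GCHFR, summed GCH1 and SPR in 13 of 13 tadpoles. Its FPKM was 351, 483, 653 and 322 in controls. After 4 h, replicates 1 to 6 had 298, 582, 90.9, 81.9, 567 and 290.1. The 30 h tadpoles had 294, 284.5 and 253. The short-term exposed tadpoles overlapped the controls, with 4 of 6 below the lowest control, while all long-term exposed tadpoles lay just below the lowest control.

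The log2 difference of DHPR from control was -0.83 (SE 0.51) after 4 h and -0.65 (SE 0.61) after 30 h. For 30 h against 4 h it was 0.18 (SE 0.56, limma adjusted p = 0.901; exact permutation p = 0.857). Short-term exposed replicates 3 and 4 had the lowest DHPR of all tadpoles. The mean of the log2 values and the mean FPKM order the exposed groups differently, since mean FPKM was 1.15 times as high after 4 h as after 30 h.

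The ratio of DHPR to summed GCH1 separated all 3 groups, a comparison chosen after the values were seen and given without a test. The ratio was 13.1, 13.9, 16.0 and 13.7 in controls, a narrow range although DHPR itself differed from 322 to 653. It was 17.5, 33.6, 19.3, 27.6, 22.1 and 21.0 in short-term exposed tadpoles and 64.5, 60.0 and 47.9 in long-term exposed tadpoles. No group overlapped another. How many ratios of other unigenes separate the groups was not counted, so nothing particular to this pair is read from it. In short-term exposed replicates 3 and 4, where both genes were low, the ratio stayed within the range of the other 4 short-term exposed tadpoles.

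GCHFR per summed GCH1 did not order the groups. It was 2.53, 2.89, 3.31 and 0 in controls, from 1.83 to 11.3 with a median of 5.13 in short-term exposed tadpoles, and 1.40, 4.65 and 7.31 in long-term exposed tadpoles. GCHFR was second to DHPR among DHPR, GCHFR, summed GCH1 and SPR in 11 of 13 tadpoles. Summed GCH1 was above SPR in 3 of the 4 controls and in 4 of all 13 tadpoles.

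**Figure D3:**
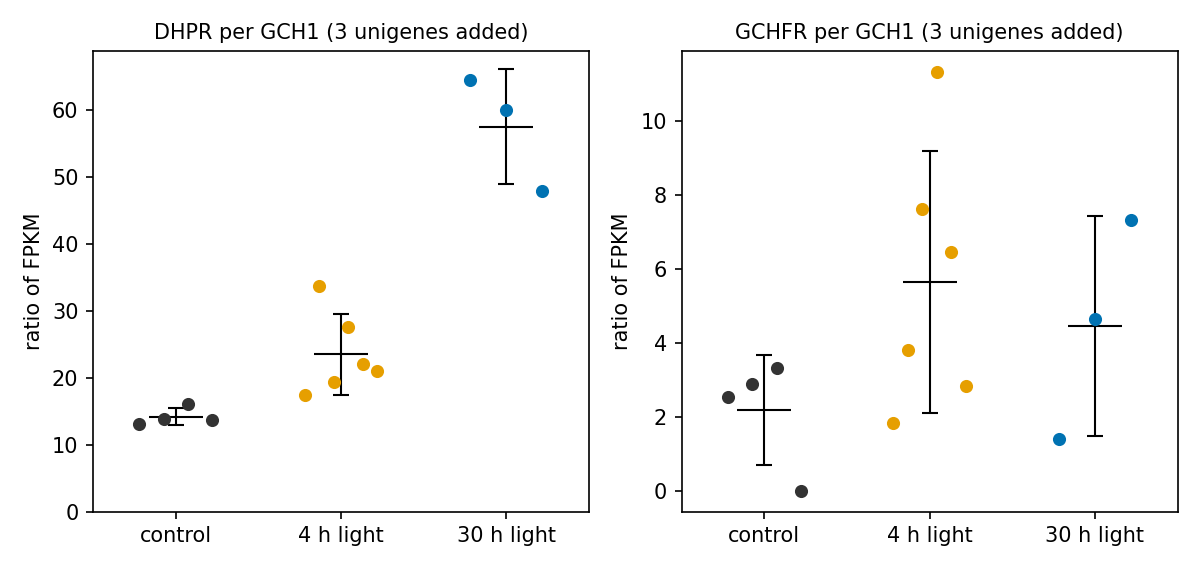
Ratio of the FPKM of DHPR (left) and GCHFR (right) to that of the 3 GCH1 unigenes added, by tadpole, with mean and SD of each group (linear axes). DHPR per GCH1 lies between 13.1 and 16.0 in controls, 17.5 and 33.6 after 4 h, and 47.9 and 64.5 after 30 h, while GCHFR per GCH1 overlaps between groups.

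Across all 147192 unigenes tested, limma called 3.05% between 30 h and 4 h, 1.37% between 30 h and control and 0.0808% between 4 h and control. In the same order, 2.09%, 0.975% and 0.0408% were called higher and 0.957%, 0.399% and 0.0401% lower. Of the 5 BH4 unigenes, 0 were called by limma in each comparison. For 30 h against 4 h, 0 of 5 had an unadjusted p under 0.05, and the exact permutation test gave 0 of 5 under 0.05. The share of all unigenes under these unadjusted limits was not worked out. The median log2 difference of the 5 BH4 unigenes was -0.62 for 30 h against 4 h, where that of all unigenes tested was 0.23. It was -1.73 against 0.20 for 30 h against control, and -1.25 against -0.10 for 4 h against control. DHPR and GCH1-1 lay wholly below control after 30 h, as did 5.16% of all unigenes. GCH1-1 did so after 4 h, as did 0.861% of all unigenes. Since the choice of the genes used these contrasts, nothing is read from these counts.

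Other pterin-related genes were listed by best-hit name, and SPR was the only BH4 synthesis enzyme among them. The steps between GTP cyclohydrolase 1 and SPR, and the amino acid hydroxylases, are not in this list. The list also held xanthine dehydrogenase/oxidase (XDH/XOD-1 and XDH/XOD-2, which oxidise purines and take part in pteridine metabolism). Its further genes were endothelial nitric oxide synthase (NOS3, a BH4 user) and enzymes of guanine nucleotide and molybdenum cofactor metabolism. Of the 9 listed, 8 passed the filter on low values. Of these, aldehyde oxidase 1 (AOX1) passed only through the 30 h group, where it is high, and it is left out of the counts. Of the other 7, limma called 0 in 30 h against 4 h, in 30 h against control and in 4 h against control, and 4, 2 and 1 had an unadjusted p under 0.05. For all unigenes the share under this unadjusted limit was not worked out, so nothing is read from the unadjusted counts. The median log2 differences of these 7 genes in the same comparisons were 0.36, 0.49 and 0.13. SPR, XDH/XOD and NOS3 were chosen by the study on these samples and their values were known, so they are not independent evidence of a direction.

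The SPR values after 4 h spanned those of the controls, and SPR was low after 30 h. Its FPKM was 18.8, 16.4, 33.4 and 29.3 in controls and 25.5, 43.8, 22.7, 17.3, 15.9 and 22.2 after 4 h, by replicate number. After 30 h SPR had 9.49, 10.9 and 6.20, each below all other tadpoles. For 30 h against 4 h the log2 difference was -1.42 (SE 0.39), lower in 3 of 3 tadpoles. It did not pass over all unigenes (limma adjusted p = 0.0627). The exact two-sided permutation test of this gene alone gave p = 0.0238, the smallest that 6 against 3 can give. Any full separation of the 2 groups gives this value, so it adds nothing to the lack of overlap. Of all unigenes, 2.68% lay wholly below the 4 h group in this comparison. Against control the log2 difference was -0.02 (SE 0.35, limma adjusted p = 0.996) after 4 h and -1.43 (SE 0.42, limma adjusted p = 0.133) after 30 h.

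The XDH/XOD unigenes were lowest after 4 h, again in replicates 3 and 4. XDH/XOD-1 had 4.42, 6.42, 6.51 and 2.93 FPKM in controls and 4.55, 2.99, 0.11, 0.23, 1.99 and 1.39 in short-term exposed tadpoles. It had 7.00, 2.49 and 19.7 in long-term exposed tadpoles. The log2 difference of 30 h against 4 h was 2.56 (SE 0.92, limma adjusted p = 0.157; exact permutation p = 0.0714). XDH/XOD-2 ranged from 4.67 to 13.8 in controls, from 0.25 to 7.73 with a median of 4.18 in short-term exposed tadpoles, and from 3.47 to 14.1 in long-term exposed tadpoles (30 h against 4 h limma adjusted p = 0.515).

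AOX1 is a molybdenum cofactor enzyme. It was listed at 0 in all controls and in 5 of 6 short-term exposed tadpoles, the other having 0.20 FPKM. The values after 30 h were 1.59, 1.12 and 0.57. The limma adjusted p was 0.00644 for 30 h against 4 h and 0.00727 for 30 h against control. Since it was tested only because of its values after 30 h, these calls had to favour that group, and AOX1 is not tested whenever a long-term exposed library is left out.

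NOS3 was low throughout, with 0.13 to 0.36 FPKM in controls, 0.22 to 0.80 in short-term exposed tadpoles (median 0.36) and 1.84, 1.40 and 1.95 in long-term exposed tadpoles. All 3 long-term exposed tadpoles were above the other 10, where 7.00% of all unigenes lay wholly above the 4 h group and 7.71% wholly above the controls. The log2 difference of 30 h against 4 h was 1.92 (SE 0.54, limma adjusted p = 0.0719, exact permutation p = 0.0238, again the smallest possible). The GMP reductase 2 unigenes (GMPR2-1 and GMPR2-2, which return GMP to the purine pool) and molybdenum cofactor biosynthesis protein 1 (MOCS1) had limma adjusted p of 0.203, 0.812 and 0.926 in this comparison. Inosine monophosphate dehydrogenase 2 (IMPDH2), of guanine nucleotide synthesis, was listed at 0 in 10 of 13 libraries and was not tested.

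**Figure D4:**
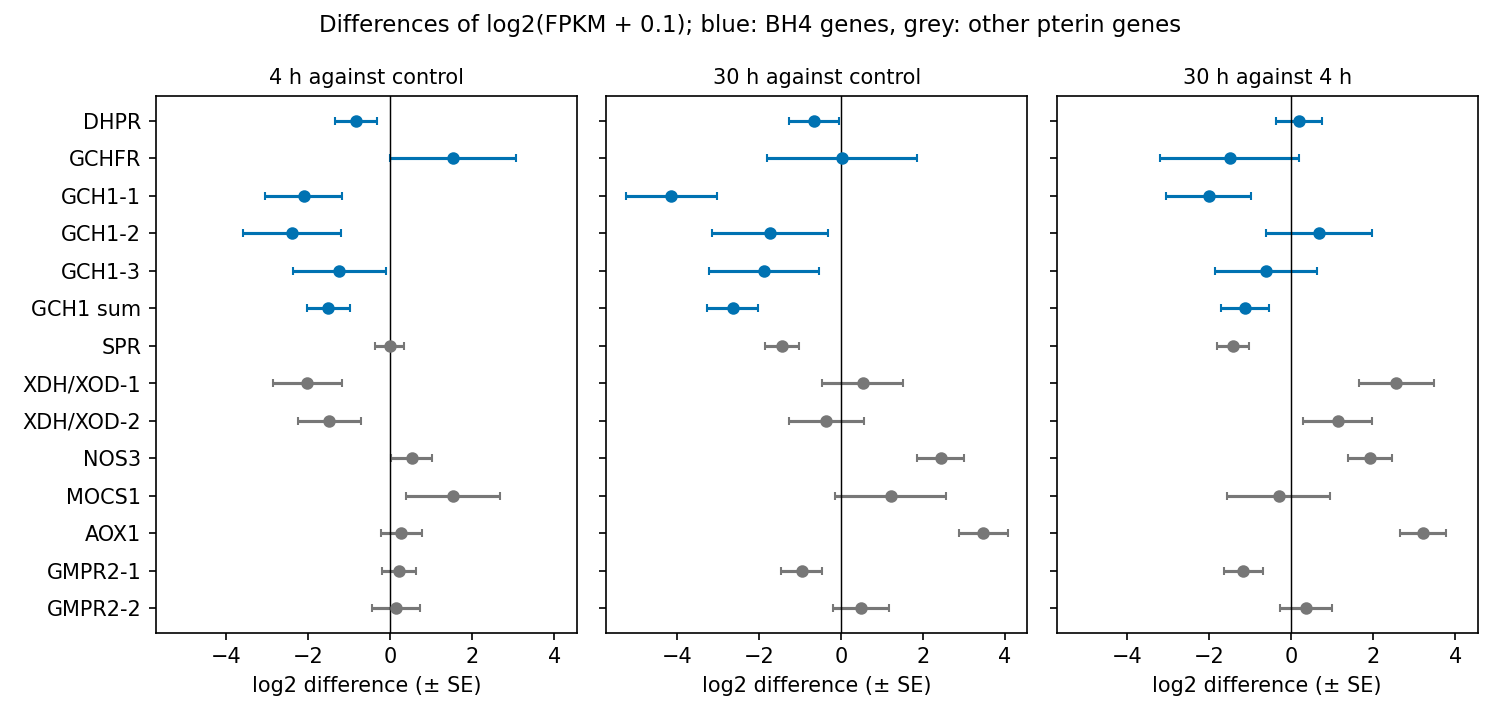
Differences of log2(FPKM + 0.1) with their standard errors from the limma fit, for the BH4 genes (blue) and the other tested pterin genes (grey), in the 3 comparisons. After 30 h against control, summed GCH1 lies at -2.64 and AOX1 at 3.48; GCHFR has a standard error of 1.82, with 1 control listed at 0.

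Correlations between single tadpoles were adjusted over the 10 pairs of BH4 unigenes. No Pearson's r passed over the 9 exposed or the 6 short-term exposed tadpoles. In these sets Spearman's rho passed only for DHPR with GCH1-1 over the 9 exposed tadpoles. Permutations over the 9 mixed the 4 h and 30 h groups, so these values include the difference between the group means. DHPR and GCH1-3 had an r of 0.79 and a Spearman's rho of 0.77 over all 13 tadpoles, a description that includes the differences between the group means. Within the 9 exposed tadpoles r was 0.75 (permutation p = 0.0162, adjusted 0.162) and rho 0.72 (permutation p = 0.0375, adjusted 0.187), and without short-term exposed replicates 3 and 4 r was 0.54. Within the 6 short-term exposed tadpoles r was 0.80 (exact permutation p = 0.0194, adjusted 0.104) and rho 0.77 (exact permutation p = 0.103, adjusted 0.454). Without short-term exposed replicates 3 and 4, r in that group was 0.20, so that the relation there rested on those tadpoles.

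No pooled coefficient is read for GCH1-1, which splits into controls and exposed tadpoles. Within the 6 short-term exposed tadpoles, r of DHPR with GCH1-1 was 0.86 (exact permutation p = 0.0208, adjusted 0.104) and rho 0.89 (exact permutation p = 0.0333, adjusted 0.333), with r at 0.60 without replicates 3 and 4. Over the 9 exposed tadpoles r of this pair was 0.52 (permutation p = 0.146, adjusted 0.550) and rho 0.87 (permutation p = 0.00474, adjusted 0.0474). That rho passed after adjustment, but it includes the difference between the 4 h and 30 h groups, so no relation within a group is read from it. GCH1-2 had a negative r with DHPR, GCH1-1 and GCH1-3 in the 6 short-term exposed tadpoles (-0.30, -0.31 and -0.35). The exact permutation p was 0.489, 0.558 and 0.611 (adjusted 0.611 for each). Without replicates 3 and 4, r of GCH1-2 was 0.72 with DHPR and 0.45 with GCH1-1. Without replicates 1 and 5 it was -0.65 with GCH1-3, so no direction is read.

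By likeness over the 13 tadpoles, the named unigene closest to DHPR was BCO2-3, a beta-carotene 9′,10′-oxygenase that cleaves carotenoids (r = 0.89), followed by XDH/XOD-2 (r = 0.81). The search covered only the 1017 named unigenes that passed the filter, with names from the study's own gene lists or part of its annotation. Both BCO2-3 and XDH/XOD-2 are from the study's lists, so their place at the top is not read as a particular link. BCO2-3 was also closest to GCH1-3 (r = 0.72), before tRNA wybutosine-synthesizing protein 5 (r = 0.71). Its FPKM was 39.3, 27.8, 56.7 and 19.5 in controls and 18.5, 27.6, 4.13, 4.72, 26.9 and 32.4 in short-term exposed tadpoles, and 17.3, 31.4 and 25.8 in long-term exposed tadpoles. Short-term exposed replicates 3 and 4 were its lowest, as they were for DHPR and both XDH/XOD unigenes. SPR, at 22.7 and 17.3 in these tadpoles, lay within the range of the controls.

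GCH1-1 was closest to connective tissue growth factor (r = 0.64) and SPR (r = 0.62). GCHFR was closest to selenoprotein S B (r = 0.74) and acyl-CoA-binding domain-containing protein 4 (r = 0.47). Both had their lowest value (0.66 and 0.10 FPKM) in control replicate 4, where GCHFR is a listed 0. Their r without that tadpole was not worked out. GCH1-2 was closest to a unigene whose best hit is a scallop NADH dehydrogenase subunit 2 (r = 0.70) and to the E3 ubiquitin-protein ligase CHIP (r = 0.62). The former had 0.78, 1.23 and 0.47 FPKM in control replicates 1 to 3 and a listed 0 in every other library. It passed the filter only through the controls, where GCH1-2 was also high, so nothing is read from its place. These r are descriptions over 13 libraries that share the group differences, and 134 or more of all tested unigenes, named or not, reached each of them.

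Liver genes differed between the groups too. Albumin (ALB), made by hepatocytes, had 1283, 2176, 2057 and 852 FPKM in controls and 561, 1730, 538, 596, 2492 and 1175 after 4 h, by replicate number. It had 8060.3, 9352 and 11982 in long-term exposed tadpoles. The summed hepatocyte list, with 9 of 9 markers tested, ranged from 892 to 2255 in controls, from 556 to 2547 after 4 h and from 8134 to 12370.5 after 30 h. AOX1, tested only through the 30 h group, is left out of the following counts. In 30 h against 4 h, 2 of the other 8 were called higher (ALB and the fibrinogen alpha unigene FGA-2) and 0 lower, beside 2.09% and 0.957% of all unigenes. Both were chosen by the study on these samples, so nothing is read from that count.

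In 30 h against control, 3 of these 8 liver markers were called higher (ALB, FGA-1 and FGA-2) and 1 lower, beside 0.975% and 0.399% of all unigenes. The lower one was cytochrome P450 2A6 (CYP2A6), with 49.6, 62.0, 67.8 and 34.4 FPKM in controls and 0.67, 1.76 and 17.4 after 30 h (log2 difference -4.15, SE 0.87, limma adjusted p = 0.0278). The liver markers thus did not move one way. ALB, FGA-1 and FGA-2 came from lists the study chose on these samples, and every higher call is among them. Of the markers not so chosen, AOX1 aside, only CYP2A6 was called, and it was lower. Nothing is therefore read from the number of higher calls. The 6 markers not so chosen summed to 39.0 to 78.3 in controls, 14.02 to 54.7 after 4 h and 4.83 to 358 after 30 h, where vitronectin in long-term exposed replicate 3 alone gave 337.

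Within the 6 short-term exposed tadpoles, r with ALB is given as a description without a test, since this comparison was chosen after the values were seen. It was 0.90 for GCHFR, 0.86 for GCH1-1, 0.83 for DHPR, 0.72 for summed GCH1, 0.49 for GCH1-3 and 0.13 for GCH1-2. Without replicates 2 and 5, the tadpoles farthest from the median of ALB, r was 0.79, 0.86, 0.54, 0.44, 0.22 and -0.57 in the same order.

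Per 1000 FPKM of ALB, DHPR was 222 to 377 in controls, 137 to 531 after 4 h and 21.1 to 36.5 after 30 h. Summed GCH1 per 1000 FPKM of ALB was 16.0 to 27.5, 4.99 to 30.4 and 0.44 to 0.57 in the same groups. Mean ALB itself went from 1592 FPKM in controls to 9798 after 30 h. A gene with unchanged FPKM would thus also have a lower ratio to ALB after 30 h. The part of liver content in the BH4 values was not tested.

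**Figure D5:**
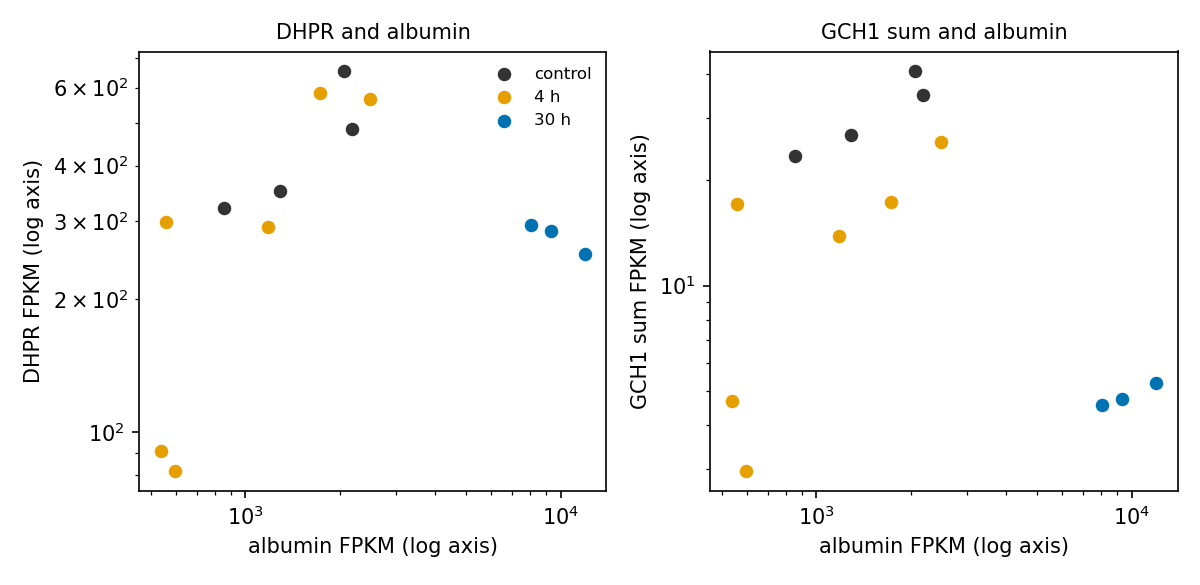
FPKM of DHPR (left) and of the 3 GCH1 unigenes added (right) against that of albumin, each point a tadpole, both axes logarithmic. The long-term exposed tadpoles lie apart at 8060.3 to 11982 FPKM of albumin, with DHPR between 253 and 294.

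Markers of other tissues had these levels. The melanophore list (TYR, TYRP1, DCT, MLANA and PMEL) summed to 3.00 to 13.2 FPKM in controls, 6.73 to 17.2 after 4 h and 22.7 to 53.5 after 30 h, and PMEL was called higher in 30 h against control (limma adjusted p = 0.0466). The carotenoid list (BCO2-1, BCO2-2, BCO2-3 and BCMO1) summed to 38.0 to 102, 17.6 to 78.7 and 31.6 to 56.8, with 0 of 4 called in each comparison. The muscle list summed to 10.5 to 18.7, 7.94 to 50.5 and 19.6 to 40.7, with 0 of 4 tested called in each comparison and 1 of 5 unigenes (XIRP1-2) listed at 0 in every library. The eye list summed to 0.06 to 2.08, 0.91 to 2.38 and 6.77 to 7.97. Its higher sum after 30 h came from the lens crystallin CRYGE, called higher in 30 h against control (limma adjusted p = 0.0173). The eye markers not chosen by the study, PAX6 and AIPL1, summed to 0.06 to 1.04, 0 to 0.46 and 0 to 0.4. The epidermis list summed to 11.0 to 36.0, 4.93 to 43.3 and 15.3 to 42.1, and the leukocyte list stayed at or under 2.29 in every library. The melanophore and carotenoid genes and CRYGE were chosen by the study on these samples. The part of these tissues in the BH4 values was not tested.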

How the data were processed

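The authors cleaned the reads, assembled them de novo with Trinity and deposited FPKM values (fragments scaled to transcript length and library size) with 2 decimals for 249088 unigenes in 13 libraries. The sources used here do not give the aligner. Unigene names are best protein hits. No sequence was analysed here.

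FPKM was taken to log2(FPKM + 0.1). The 147192 unigenes that reached 0.3 in 3 or more libraries were fitted over all 3 groups with limma 3.58.1 (R 4.3.3; mean-variance trend), and p values were Benjamini-Hochberg adjusted over all of them; a call is an adjusted p under 0.05. The code was tested on simulated data. On this scale changes of low genes are understated. GCH1 unigenes were summed before the logarithm. Exact permutation tests and correlations (100000 permutations, exact for 6 tadpoles) used SciPy 1.17.1.

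The genes, lists and tests were chosen with earlier results of these data known. Named genes are the BH4 genes, the pterin and marker lists, and for each BH4 unigene the 2 named unigenes with the highest r. Alternatives were pseudocounts of 1 and 0.01, other filters, median-of-ratios scaling, untransformed FPKM, array weights, a replicate block, only the groups compared, and left-out libraries.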

Additional observations from a re-analysis of the deposited data

Results flagged for a closer look

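The highest or lowest value of a group was set against the gap to its nearest neighbour (Dixon's criterion at 95%) in 40 groups of 4 or 6 tadpoles, and 5 values stood apart. The criterion flags about 1 in 20 groups by chance only for normally distributed values, which FPKM and their ratios need not be. Groups listed at 0 throughout are among the 40 and could not be flagged. GCHFR in short-term exposed replicate 5 stood apart at 165.7 FPKM, far above the other 5 tadpoles of that group. SPR in short-term exposed replicate 2 stood apart at 43.81 FPKM. Summed GCH1 per 1000 FPKM of albumin stood apart in short-term exposed replicate 1 at 30.39, where albumin was among the lowest of that group. The remaining cases were single low values above zeros, which the criterion always flags: AOX1 at 0.2 FPKM in short-term exposed replicate 3 and IMPDH2 at 0.05 FPKM in control replicate 3.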

How the results depend on the processing

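Under 23 alternatives, 0 of the 5 BH4 unigenes were called in 30 h against 4 h and in 4 h against control. The calls over all unigenes depended on single libraries. In 4 h against control they rose from 119 to 3144 without short-term exposed replicate 1. In 30 h against 4 h they fell from 4489 to 949, 517 and 513 without long-term exposed replicate 1, 2 or 3. In 30 h against control 1 (GCH1-1) was called with a pseudocount of 1 (2854 over all unigenes) and array weights (3242), 0 otherwise. The genes were chosen on contrasts with control, so nothing is read from the counts against control. The replicate numbers do not pair the tadpoles: residuals of 10 same-numbered pairs correlated between -0.109 and 0.019. With the replicate number as a block, calls over all unigenes fell to 371 in 30 h against 4 h. They fell to 680 and 3 in 30 h and 4 h against control. The block gave 0 pterin calls in both 30 h comparisons, and 1 and 2 marker calls.

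The sign of differences that passed no test turned most for GCHFR. In 30 h against control, 0.025 became -1.76 to -0.07 with a pseudocount of 1, median-of-ratios scaling, untransformed FPKM, the block or array weights. Left-out libraries gave -2.456 to 1.008. In 4 h against control, 1.533 became -0.29 with untransformed FPKM and -0.948 to 2.516 over left-out libraries. The sign also turned for DHPR in 30 h against 4 h with untransformed FPKM (-0.20) and over left-out libraries (-0.14 to 0.43). It turned for GCH1-2 with a pseudocount of 1 (-0.018) and untransformed FPKM (-0.51), and for GCH1-3 without replicate 1 of both exposed groups (0.085). SPR in 4 h against control moved around 0 (0.042 with median-of-ratios scaling, 0.005 with untransformed FPKM or array weights, 0.134 with the block, -0.199 to 0.154 over left-out libraries).

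Pterin calls, AOX1 included, numbered 1 in 30 h against 4 h, and 2 with a pseudocount of 1, no filter, median-of-ratios scaling or untransformed FPKM, 3 with array weights, 0 without replicate 1 of both exposed groups, and 0 to 2 over left-out libraries. SPR passed with the stricter filter, median-of-ratios scaling, array weights and without short-term exposed replicate 5. In 30 h against control they were 1, and 2 with a pseudocount of 1, no filter or array weights, 0 with the stricter filter or without those libraries, and 0 to 2 over left-out libraries. Marker calls, AOX1 included, were 3 in 30 h against 4 h. They were 7 with a pseudocount of 1, 6 with median-of-ratios scaling, 5 with array weights and 1 to 4 over left-out libraries. Over all unigenes, 4489 were called here, and 6332, 5902 and 6255 in those settings. No filter gave 5947, untransformed FPKM 4362, omitting replicate 1 of both exposed groups 7325, and single left-out libraries 513 to 5640. In 30 h against control, marker calls were 7, and 4 with a pseudocount of 0.01, no filter or only the groups compared. They were 1 with untransformed FPKM, 0 without both libraries and 1 to 8 over left-out libraries. Over all unigenes, 2023 were called in that comparison. A pseudocount of 0.01 gave 1407, no filter 3051, only the groups compared 2405 and untransformed FPKM 626. Omitting both libraries gave 604, and single left-out libraries 418 to 2202. AOX1 did not pass the filter without a long-term exposed library or with the stricter filter, so it could not be called there. For the other changes the cause was not tested. Pairs of BH4 unigenes with r above 0 numbered 9 of 10, and 6 to 10 over left-out libraries. Median-of-ratios scaling moved the median over all unigenes from 0.231 to 0.214 in 30 h against 4 h. Without read counts, no limit of detection can be given.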
